A study of Mus musculus with 44 samples.

Results

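Mouse cortical neurons in culture were depolarized with KCl for 30 min and compared with an unstimulated culture of the same age. The members were chosen by label and time, with earlier results of these data known. They were the RNA-seq, ribosome-protected fragment (RPF) and TAIL-seq libraries of the 30 min KCl culture and of its unstimulated control. These are 6 of the 44 samples of the series. Each group had 1 library per assay, so no test between groups was possible. The series asked how neuronal activity, microRNAs and poly(A) tails relate to the efficiency with which mRNAs are translated. Its other samples used here for comparison were a culture given KCl for 10 min and, at an older age, cultures left unstimulated or exposed to BDNF, or to glutamate plus glycine (glu/gly), also for 30 min.

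The KCl cultures came from dissociated cortices of newborn mice of both sexes and were harvested after 10 days in vitro (DIV10). They had been treated with the antimitotic agent AraC, which limits the growth of dividing non-neuronal cells. The BDNF, glu/gly and matching unstimulated cultures were harvested at DIV14. A raised KCl concentration depolarizes all neurons of a dish at once and opens voltage-gated calcium channels. Calcium then signals through calmodulin-dependent kinases and the MAP kinase pathway to transcription factors that are already present, such as CREB and SRF. These switch on the immediate-early genes, which need no new protein for their transcription and many of which encode transcription factors themselves.

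In each library, counts were divided by the library's total on genes. The unstimulated, 10 min and 30 min libraries held 604775, 574544 and 776935 TAIL-seq tags, 1191140, 530981 and 803062 RNA-seq reads, and 9477806, 5515106 and 3048428 RPFs on genes. Folds are given with a 95% Clopper-Pearson interval, which covers counting error only, was not adjusted for the number of genes and leaves out any difference between cultures. Levels are given as CPM, the counts-per-million of the library's total on genes. In tags, the 11 neuron markers summed to 7824 CPM in the control, 8457 at 10 min and 8989 at 30 min. The 9 astrocyte markers summed to 1564, 1666 and 1470. The 9 oligodendrocyte-lineage markers were at 504, 614 and 470, the 8 microglial markers at 38.0, 31.3 and 27.0, and the 8 vascular and fibroblast markers at 69.4, 55.7 and 56.6. The cultures were thus neuronal by their markers, with astrocyte RNA present in all of them.

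The genes on which the results turn are those with a higher share at 30 min in all 3 assays, by at least 2-fold and with an interval that did not reach 1. There were 11: Fos, Fosb, Junb, Egr1, Egr2, Nr4a1, Npas4, Ier2, Arc, Arl4d and Dusp1. RefSeq promoter sequence (GRCm38.p6) was used for 8 of them. Egr1, Ier2 and Arc were not searched, so the counts below say nothing of them. Promoters of 1 chromosome were left out of the search and of the background. Their 250 bases upstream of the start site were searched on both strands for TGACGTCA, the full cyclic-AMP response element, for its shorter form TGACG, and for the CArG box, the core of the serum response element. Every TGACGTCA also contains TGACG on each strand. TGACG was present in 8 of the 8, against 17.8% of 32851 promoters. TGACGTCA was present in 2 of the 8, against 1.55%, and the CArG box in 1 of the 8, against 1.47%. These matches describe letters and do not show that a factor was bound. The windows below are printed because they hold the match nearest to the start site or the longer motif, each as 70 bases in the direction of the gene with the matches in capitals (CGTCA is TGACG on the other strand). The Fos window lay at chr12:85473791-85473860 on the plus strand, and its capitals mark TGACG, 66 bases before the start site. Junb lay at chr8:84978818-84978887, minus strand, with TGACG 106 bases before the start. Fosb lay at chr7:19310069-19310138, minus strand, with TGACG 60 bases before the start. Nr4a1 lay at chr15:101266773-101266842, plus strand, with 2 matches to TGACG on the opposite strand. Npas4 lay at chr19:4990104-4990173, minus strand, with TGACG once on each strand. Egr2 lay at chr10:67537767-67537836, plus strand, with the CArG box 72 bases before the start and TGACG on the opposite strand beside it. Dusp1 lay at chr17:26508577-26508646, minus strand, and Arl4d at chr11:101665471-101665540, plus strand, with TGACGTCA beginning 143 and 26 bases before the start.
Fos: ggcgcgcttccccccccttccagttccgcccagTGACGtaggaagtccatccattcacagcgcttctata
Junb: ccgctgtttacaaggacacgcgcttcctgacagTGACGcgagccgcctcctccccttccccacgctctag
Fosb: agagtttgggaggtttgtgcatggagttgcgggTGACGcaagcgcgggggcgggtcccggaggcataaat
Nr4a1: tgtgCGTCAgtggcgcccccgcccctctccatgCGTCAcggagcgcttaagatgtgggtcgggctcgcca
Npas4: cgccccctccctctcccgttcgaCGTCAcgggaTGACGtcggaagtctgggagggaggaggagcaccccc
Egr2: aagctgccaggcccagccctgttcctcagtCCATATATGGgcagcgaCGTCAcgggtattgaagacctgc
Dusp1: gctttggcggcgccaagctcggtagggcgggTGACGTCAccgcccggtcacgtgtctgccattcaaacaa
Arl4d: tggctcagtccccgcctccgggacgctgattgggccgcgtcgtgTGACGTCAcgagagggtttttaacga

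A subset of the immediate-early transcription factors was higher after 30 min of KCl, led by Fos, Fosb, Junb, Egr1, Egr2, Nr4a1, Npas4 and Ier2. At 10 min the list's summed level in tags was much closer to that of the control. Of the 31 genes on this list, 24 had the 20 tags over both libraries that the comparison required, and 12 of these were called higher in tags and 0 lower. Across all 8322 genes with 20 tags, 145 (1.74%) were called higher and 148 (1.78%) lower by the same rule. In RNA-seq, 8 of 21 tested members were called higher and 0 lower, beside 228 (2.26%) higher and 623 (6.16%) lower of 10106 genes. In RPFs, 13 of 30 were called higher and 1 lower, beside 167 (1.34%) and 638 (5.11%) of 12490 genes. The list's median log2 change was 0.93 in tags, 0.37 in RNA-seq and 0.67 in RPFs, beside 0.03, -0.06 and -0.03 over all genes tested. Members low in the control could pass the minimum through the 30 min library alone. This can raise a list's share of calls and its median. The gene lists were also drawn up with earlier results of these data known, so their shares of calls are descriptions. Summed over the list, tags went from 1136 CPM in the control to 1399 at 10 min and 3596 at 30 min. RPFs of the list went from 859 CPM to 3628.

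Fos encodes a subunit of the AP-1 transcription factor and is the most widely used marker of activated neurons. It had 66.1, 120 and 838 CPM in tags in the control, 10 min and 30 min cultures. The share at 30 min was 12.7-fold that of the control (9.20 to 17.9, from 40 and 651 tags). RNA-seq reads of Fos were at 13.4, 43.3 and 245 CPM, which made the 30 min share 18.3-fold higher (11.0 to 32.6, from 16 and 197 reads). RPFs of Fos were at 27.7, 60.9 and 937 CPM, 33.8-fold higher at 30 min (29.8 to 38.5). At 10 min Fos stood between the other two cultures in each assay, at 1.82-fold the control in tags (1.21 to 2.75) and 2.20-fold in RPFs (1.86 to 2.59).

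The other AP-1 genes differed among themselves. Fosb, a paralog of Fos, had 4, 5 and 59 tags in the 3 libraries, 11.5-fold higher at 30 min (4.25 to 43.5). Its RPFs were 18, 34 and 305, and the share at 30 min was 52.7-fold that of the control (32.8 to 90.1). Junb, a partner of the Fos proteins, had 25, 39 and 320 tags, a 9.96-fold difference (6.63 to 15.6), and its RPF share was 10.5-fold higher (9.32 to 11.8). Jun had 74, 102 and 196 tags and was 2.06-fold higher (1.57 to 2.73), with 2.28-fold in RPFs (2.08 to 2.5). Jund, which is expressed in resting cells, was at 107, 99 and 149 tags, 1.08-fold (0.840 to 1.40), and its RPF share was lower, at 0.607-fold (0.518 to 0.708). Fosl2 was at 1.39-fold in tags (0.884 to 2.21), and Fosl1 was close to absent, with 0, 2 and 0 tags. The induced members were thus Fos, Fosb, Junb and, to a lesser extent, Jun.

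The zinc-finger factors of the Egr family bind the same GC-rich element and are induced together by activity. Egr1 went from 54.6 to 125 and 532 CPM in tags and was 9.74-fold higher at 30 min (6.83 to 14.3). Its RPFs were at 36.0, 83.8 and 704 CPM, 19.6-fold higher (17.4 to 22.0). RNA-seq held few Egr1 reads, 9, 5 and 18, and gave 2.97-fold (1.27 to 7.50). Egr2 had 4, 9 and 55 tags and 20, 28 and 150 RPFs, which were 10.7-fold (3.95 to 40.7) and 23.3-fold (14.6 to 39.3) higher. Egr4 had 16, 11 and 82 tags, 3.99-fold higher (2.32 to 7.30), and 41, 69 and 191 RPFs, 14.5-fold higher (10.3 to 20.8). Egr3 was the exception in the family. Its tags were 14, 13 and 39, 2.17-fold higher (1.15 to 4.32), whereas its 184, 85 and 69 RPFs gave 1.17-fold (0.871 to 1.55).

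The nuclear receptor gene Nr4a1 had the largest fold in tags among the genes named by rank, with 7, 6 and 158 tags in the 3 libraries. This was 17.6-fold (8.33 to 44.4), and no rise was visible at 10 min (0.902-fold, 0.251 to 3.14). Its RPFs were 33, 67 and 305, so the RPF share was already 3.49-fold the control at 10 min (2.27 to 5.47) and 28.7-fold at 30 min (20.03 to 42.5). Its relative Nr4a2 had 0, 1 and 0 tags, and its 62, 43 and 45 RPFs were 2.26-fold higher at 30 min (1.502 to 3.37). Nr4a3 had 0 tags in all 3 cultures although it had 582, 346 and 282 RPFs. The levels of Nr4a2 and Nr4a3 could not be followed in tags, and the reason for their missing tags was not tested. Npas4, a neuron-specific factor that responds to calcium entry, had 0, 1 and 27 tags, at least 7.01-fold higher at 30 min when set against a floor of 3 tags in the control library. Its 9, 5 and 67 RNA-seq reads were 11.0-fold higher (5.48 to 25.2). Its 35, 52 and 605 RPFs gave the largest RPF fold of all genes called, 53.7-fold (38.2 to 77.9).

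Ier2, a nuclear protein of the immediate-early group, was at 22, 36 and 151 tags, 5.34-fold higher (3.40 to 8.78), and 8.38-fold in RPFs (6.60 to 10.7). Klf6, a Krüppel-like factor, was already at its 30 min level after 10 min, with 52.9, 106 and 107 CPM in tags. The remaining members were not called higher in tags, although some of the 13 called higher in RPFs were among them. Atf3, a stress-induced factor, had 9, 9 and 22 tags and 1.90-fold (0.842 to 4.69). Tags of Srf, Ier5, Myc, Bhlhe40, Nfil3 and Crem lay between 0.873-fold and 1.30-fold, each with an interval that included 1. Per1, a circadian gene with activity-responsive elements, was at 0.548-fold in tags (0.288 to 1.02) and 1.47-fold in RPFs (1.29 to 1.68). Klf2 was the member called lower in RPFs, with 50, 39 and 7 footprints (0.435-fold, 0.166 to 0.965), and in tags it was at 1.40-fold (0.422 to 5.32). The plot of folds in 3 assays shows the induced genes with their intervals.

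**Figure D1:**
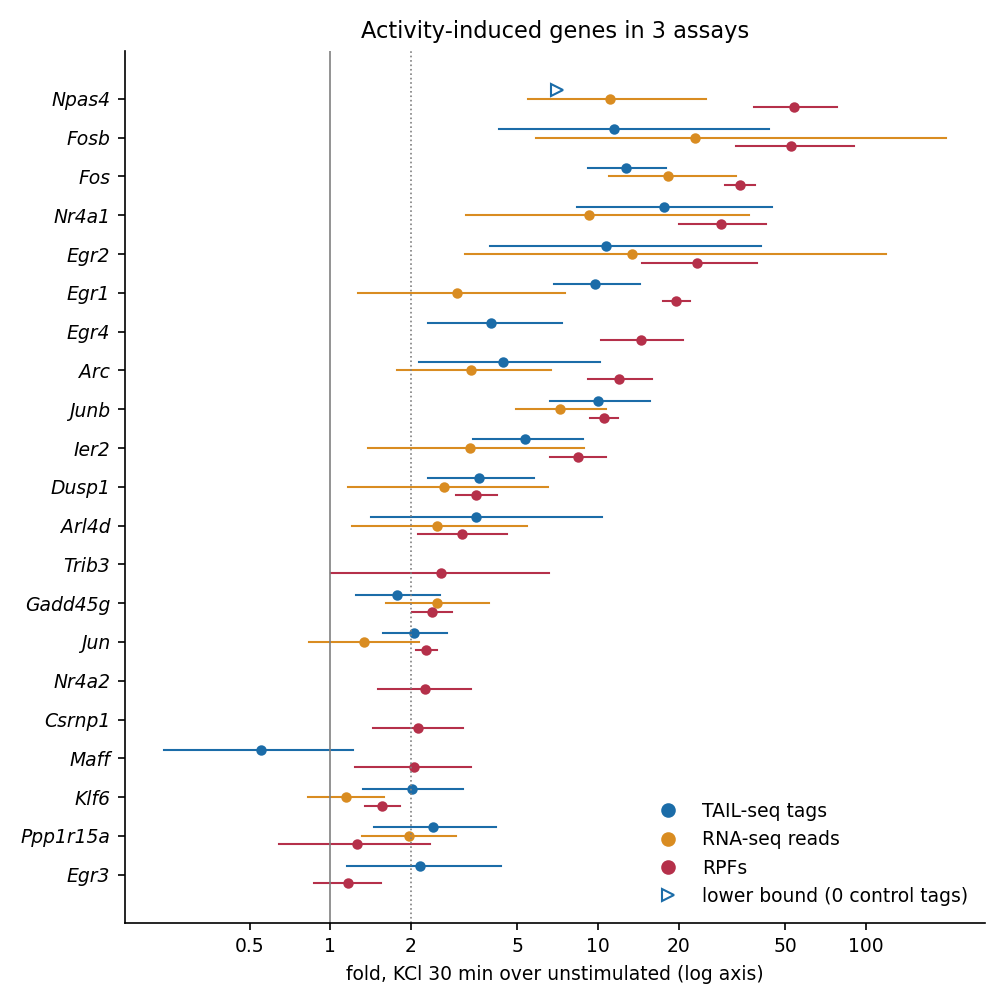
Fold of the 30 min KCl culture over the unstimulated DIV10 culture (log axis), with 1 library per assay and group. Genes are those called higher in tags or RPFs from the immediate-early, activity-regulated, MAP kinase feedback and stress-gene lists. The stress-gene list adds Ppp1r15a and Trib3. Points are TAIL-seq tags, RNA-seq reads and RPFs, lines are 95% counting intervals, and the open triangle is the lower bound for Npas4. RPF folds exceed tag folds beyond the counting interval of their ratio for Fosb, Egr4, Arc, Fos and Egr1, but not for Junb or Dusp1.

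The RPF fold was larger than the tag fold for several of these genes, which is to say that footprints had increased more than mRNA 3′ ends. The ratio of the RPF fold to the tag fold was 2.67 for Fos (1.89 to 3.76), 2.01 for Egr1 (1.38 to 2.91), 3.63 for Egr4 (1.93 to 6.84), 2.72 for Arc (1.28 to 5.79) and 4.59 for Fosb (1.499 to 14.0). For Egr2, Nr4a1 and Ier2 it was 2.18, 1.64 and 1.57, each with an interval that included 1. For Jun, Junb and Dusp1 the ratio was 1.11, 1.05 and 0.980, so in these footprints and tags rose alike within counting error. Egr3 was at 0.538 (0.275 to 1.05). RPFs, RNA-seq reads and tags came from separate libraries, and the difference between Fos and Junb was seen in 1 culture only. For Fos, RNA-seq reads gave a fold between those of tags and RPFs. For Junb the RNA-seq fold was 7.20, below its folds in tags (9.96) and RPFs (10.5). The RPF fold was thus above the RNA-seq fold in both genes, without an interval for that ratio. The contrast between Fos and Junb rests on tags as the measure of mRNA. Translational efficiency (TE) was not available for these genes, because TE was computed only where both RNA-seq libraries held at least 10 RPM, the deposited reads-per-million. Only Jund and Klf6 of the 31 members met this, with TE changes of -0.25 and 0.56 (log2).

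Among the activity-regulated genes that encode synaptic and signalling proteins, Arc and Arl4d were called higher in all 3 assays. Of the 25 genes of this list, 2 of 16 tested were called higher in tags (beside 1.74% of all genes), 4 of 20 in RNA-seq (2.26%) and 3 of 24 in RPFs (1.34%). The list's median log2 change was 0.23 in tags, 0.41 in RNA-seq and 0.53 in RPFs. Arc, which encodes a capsid-like protein that controls AMPA receptor traffic at synapses, had 9, 4 and 51 tags and was 4.41-fold higher (2.15 to 10.2). Its 69, 49 and 266 RPFs were 12.0-fold higher (9.17 to 15.9), and at 10 min neither measure stood above the control (0.468-fold, 0.105 to 1.68, and 1.22-fold, 0.828 to 1.79). Arl4d, a small GTPase, had 6, 10 and 27 tags (3.50-fold, 1.42 to 10.4) and 58, 67 and 58 RPFs (3.11-fold, 2.12 to 4.55). Gadd45g, a growth-arrest gene, had 46, 42 and 105 tags, which at 1.78-fold (1.25 to 2.57) lay under the 2-fold rule, and was called higher in RNA-seq (2.5-fold, 1.62 to 3.91) and RPFs (2.397-fold, 2.02 to 2.85).

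Bdnf and Homer1, both classical activity-regulated genes, were not called higher in tags. Bdnf, a neurotrophin, had 23, 13 and 33 tags (1.12-fold, 0.636 to 1.99), 14, 7 and 20 RNA-seq reads (2.12-fold, 1.02 to 4.53) and 103, 54 and 52 RPFs (1.57-fold, 1.10 to 2.21). Homer1, a postsynaptic scaffold, had 39, 33 and 49 tags (0.978-fold, 0.629 to 1.53). Its RPFs moved the other way, at 46.6, 19.8 and 22.6 CPM, and were called lower at 0.485-fold (0.371 to 0.627). Both genes make transcripts with different 3′ ends, and counting on 1 transcript per gene did not separate them. Secretory and neuropeptide-related members were higher in RPFs by less than 2-fold, namely Scg2 at 1.68-fold (1.61 to 1.76), Pcsk1 at 1.72-fold (1.46 to 2.02) and Vgf at 1.45-fold (1.38 to 1.53). Inhba, Pim1 and Ptgs2 had 0 tags in all 3 cultures, though RNA-seq reads and RPFs were present.

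Among the 12 feedback inhibitors of MAP kinase signalling, Dusp1 was the only member called higher, and it was called so in each assay. This phosphatase, which switches off MAP kinases in the nucleus, had 25, 25 and 115 tags and was 3.58-fold higher (2.31 to 5.76). Its RPFs were at 25.4, 36.8 and 89.2 CPM, 3.51-fold higher (2.94 to 4.19). Spred2 was called lower in RPFs, with 161, 35 and 24 (0.463-fold, 0.289 to 0.714), and had 0 tags. The components of depolarization signalling, such as calcium channels, calmodulins, CaM kinases, MAP kinases and CREB, showed no change common to the 3 assays. Of 29 tested in tags, 1 (Camk4, 2.03-fold, 1.34 to 3.13) was called higher and 0 lower, beside 1.74% and 1.78% of all genes. In tags 24 were above 1-fold, with a median log2 change of 0.12. In RPFs 10 of 33 were above 1-fold, with a median of -0.15. There 0 were called higher and 1 lower, beside 1.34% and 5.11% of all genes. The RNA-seq median was -0.03.

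**Figure D2:**
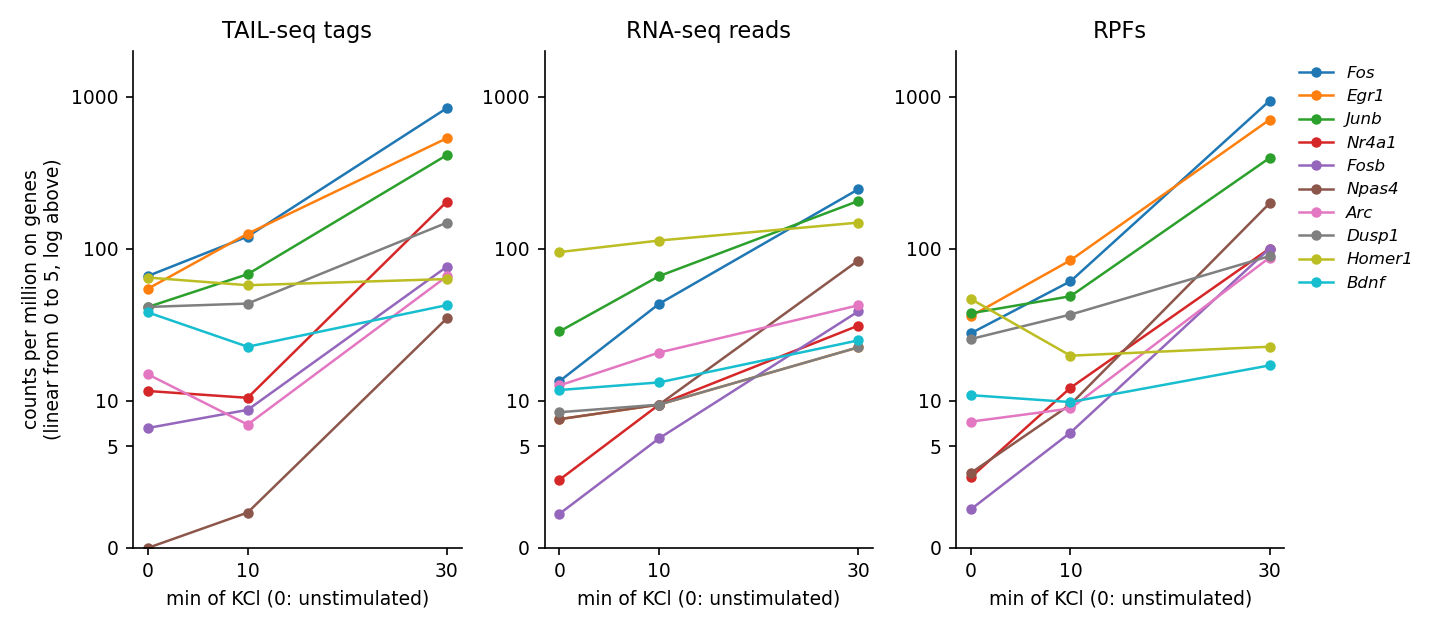
Levels in CPM for 10 activity genes in the unstimulated DIV10 culture (0 min) and the cultures given KCl for 10 and 30 min, with 1 library per point and an axis that is linear from 0 to 5 and logarithmic above. Fos, Egr1, Junb, Nr4a1, Fosb, Npas4 and Arc are higher at 30 min than at 0 min in tags, RNA-seq reads and RPFs, while Homer1 and Bdnf stay near their control level in tags.

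Outside these lists the 3 assays shared few calls. Of the 145 genes called higher in tags, 20 were called higher in RNA-seq, 16 in RPFs and 11 in both, and 120 were called in tags alone. The 16 shared with RPFs were the 11 genes above and Jun, Egr4, Penk, Mpv17l and Wsb1. Penk, which encodes the precursor of enkephalin opioid peptides, had 60, 120 and 166 tags (2.15-fold) and its RPF share was 2.06-fold that of the control. Across the 145 genes, the median log2 change was 0.22 in RNA-seq and 0.19 in RPFs, with 92 and 96 of them above 1-fold. The genes next in rank after the immediate-early group were Zfp260, Nexmif, Smarca1, Ppp1r15a and Prpf4b, which had tag folds of 3.04, 2.96, 2.67, 2.41 and 2.38 and RPF folds of 0.846, 1.10, 1.22, 1.26 and 0.810. Ppp1r15a, a stress-response phosphatase subunit whose mRNA is controlled by upstream open reading frames, had 21, 22 and 65 tags but only 37, 25 and 15 RPFs (1.26-fold, 0.643 to 2.35). When tags were scaled by the synthetic standards added to each library, all tag changes moved by 0.30 on the log2 scale, and 460 genes were then called higher and 57 lower. The folds above are thus relative to the other genes of the library.

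The genes with the largest fall in tags also had lower RPF shares, and their tag shares at 10 min were below the control as well. Each was chosen with RNA-seq in the same direction, so its lower RNA-seq share is no separate result. The 10 named by rank, from 46 that met the rule, were S100a11, Cxcl10, Prss23, Flna, Id3, Ccn5, Cdc42ep1, Rab29, Tnc and Ifitm3, with tag folds from 0.195 to 0.385 at 30 min. RPF folds at 30 min ran from 0.279 to 0.759. At 10 min the tag folds ran from 0.249 for Ccn5 to 0.907 for Rab29. These folds rest on the same control tags by which the genes were chosen. Tag shares below the control at 10 min are thus no separate result. Prss23, a secreted protease, had 198, 127 and 64.4 CPM in tags in the control, 10 min and 30 min cultures (0.324-fold, 0.228 to 0.455). Its RNA-seq reads were at 180, 104 and 53.5 CPM and its RPFs at 98.4, 53.5 and 54.8. Tnc, which encodes the extracellular matrix protein tenascin C, was at 121, 80.1 and 46.3 CPM in tags and at 302, 180 and 177 CPM in RPFs. Ccn5, a matricellular protein, was at 119, 29.6 and 43.8 CPM in tags, and was lower at 10 min than at 30 min. Flna, the actin crosslinker filamin A, had 8075, 2706 and 1239 RPFs, 0.477-fold at 30 min (0.449 to 0.507) and 0.576-fold at 10 min (0.551 to 0.602). Cxcl10, an interferon-induced chemokine, was at 193, 83.5 and 61.8 CPM in tags, and Id3, an inhibitor of basic helix-loop-helix factors, at 0.338-fold (0.222 to 0.505).

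All 3 assays called 14 genes lower, among them, chosen after their values were seen, Acta2, Col18a1, Col12a1, Fbln5 and Ltbp2, which encode smooth-muscle actin and matrix proteins. Acta2 had 184, 124 and 102 tags and 0.432-fold. The vascular and fibroblast markers moved with these genes in RPFs, where the 8 markers summed to 466 CPM in the control, 298 at 10 min and 165.0 at 30 min. In RPFs, 3 of 6 tested (Col1a1, Col1a2 and Col3a1) were called lower and 0 higher, and Col3a1 was at 0.169-fold (0.115 to 0.242). In RNA-seq, Col1a1 and Col1a2 were called higher instead, from 26 to 47 and from 34 to 50 reads. The endothelial markers Cldn5 and Flt1 had 0 tags in all 3 cultures. Flna was at 24.9, 14.2 and 11.3 CPM in tags in the DIV14 unstimulated, BDNF and glu/gly cultures, against 61.2 in the DIV10 control. In bulk libraries, fewer cells of a type and less RNA per cell cannot be told apart, and with 1 culture per group neither can treatment and a difference between dishes. The part of vascular and fibroblast cells in the fall was not tested.

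**Figure D3:**
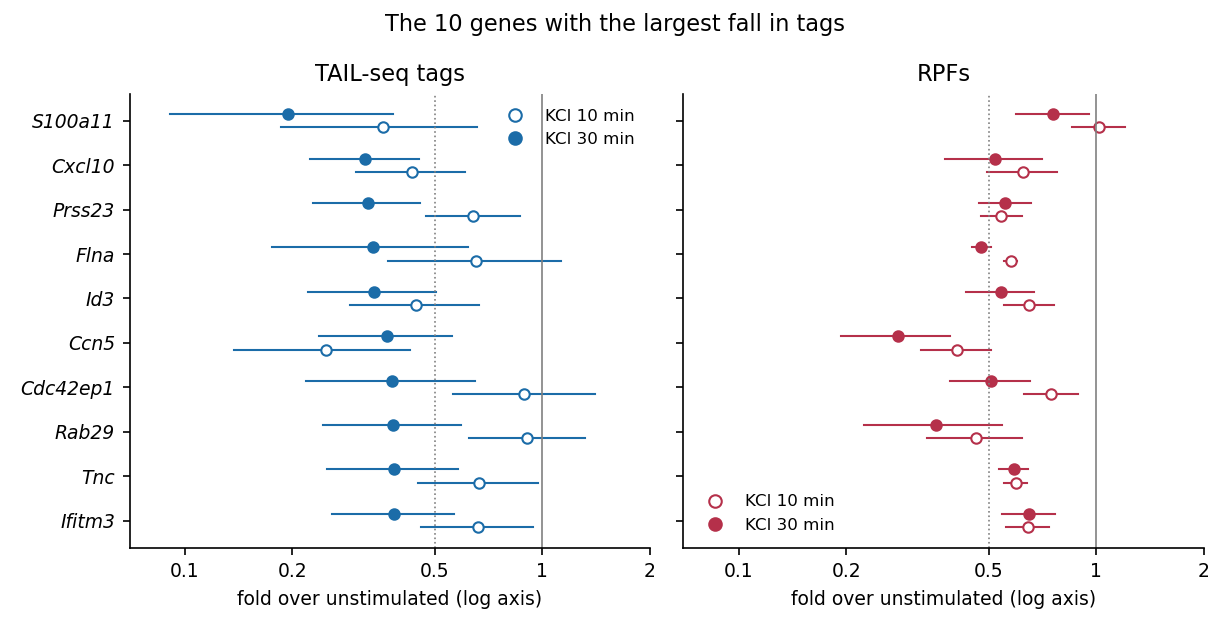
Fold over the unstimulated DIV10 culture (log axis) in tags and RPFs for the 10 genes with the largest fall in tags, after 10 min (open points) and 30 min (filled points) of KCl. Lines are 95% counting intervals, and both time points share 1 control library per assay; 9 of the 10 genes lie below 1 at both times in both assays, and S100a11 is near 1 in RPFs at 10 min.

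TE was taken as the log2 ratio of RPF RPM to RNA-seq RPM and its change was centred on the median of all 3535 genes with 10 RPM in both RNA-seq libraries. The median change before centring was 0.32, and such a shift is set by the totals of 4 libraries. Genes held 19.5% of the RNA-seq total behind the RPM values in the control, 21.9% at 10 min and 13.8% at 30 min. For RPFs these shares were 58.3%, 51.3% and 56.0%. The part of the lower RNA-seq share at 30 min in the TE changes was not tested. After centring, 60 genes (1.7%) were at least 2-fold higher and 163 (4.61%) at least 2-fold lower in TE, and without centring 292 and 63. The largest increases were in Mt1, Ogdhl, Ubb, Mt2, Chpf, Dpp3, Dner and Mfge8, from 1.56 to 1.36 on the log2 scale. In each of them the RNA-seq share was lower at 30 min, whereas tags and RPFs moved less. Dner, a Notch-related receptor of neurons, had 660, 565 and 342 CPM in RNA-seq but 1052, 1076 and 1203 CPM in tags and 2453, 3250 and 3025 CPM in RPFs. With tags in place of RNA-seq reads, its TE change was 0.17 and that of Mt1, a metallothionein, was 0.40. Ubb and the metallothioneins have related genes in the genome, and whether shared reads affected their counts was not tested.

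The largest decreases in TE were in Vti1b (-2.24), Ivns1abp (-1.97), Ddn (-1.92), Rundc3a (-1.81), Rc3h2 (-1.73), Pank3 (-1.64), Mtdh (-1.62) and Sh3kbp1 (-1.61), with counting errors of 0.20 to 0.27. Here RPF shares were lower at 30 min, and in some of these genes, Vti1b among them, a higher RNA-seq share added to the change. Vti1b, a SNARE protein of endosomes, had 55.5, 21.9 and 20.99 CPM in RPFs in the control, 10 min and 30 min cultures, while its tags were at 422, 407 and 496 CPM. Ddn, which encodes the dendritic protein dendrin and whose mRNA is found in dendrites, had 63.1, 27.2 and 17.4 CPM in RPFs and 231, 228 and 261 CPM in RNA-seq. Ivns1abp had 97.8, 23.0 and 28.5 CPM in RPFs. With tags as the measure of mRNA the 8 genes stayed between -1.28 and -2.30. In all 8 genes RPFs were lower in both KCl cultures than in their shared control, so that against the 10 min culture Vti1b changed by -0.74 and Rc3h2 and Sh3kbp1 by 0.029 and 0.070. Over the 3521 genes with a known coding sequence, the SD of the log2 RPF change at 30 min was 0.42 against the control and 0.24 against the 10 min culture.

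RNA-seq changes followed base composition. Across 3521 genes, which are not independent replicates and share the same 2 libraries, the RNA-seq change had a Spearman correlation of -0.43 with the GC content of the coding sequence. The correlation was -0.23 for tags, -0.05 for RPFs and 0.27 for TE. From the lowest to the highest of 5 equal bins of GC content, the median RNA-seq change went from 0.38 to -0.12 and the median TE change from -0.29 to 0.12. After subtraction of the median change in 20 bins of GC content, 34 genes lay at least 2-fold higher and 160 at least 2-fold lower in TE, Vti1b was at -2.31 and Dner at 1.18. Whether library preparation or the cells gave rise to the trend was not tested.

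**Figure D4:**
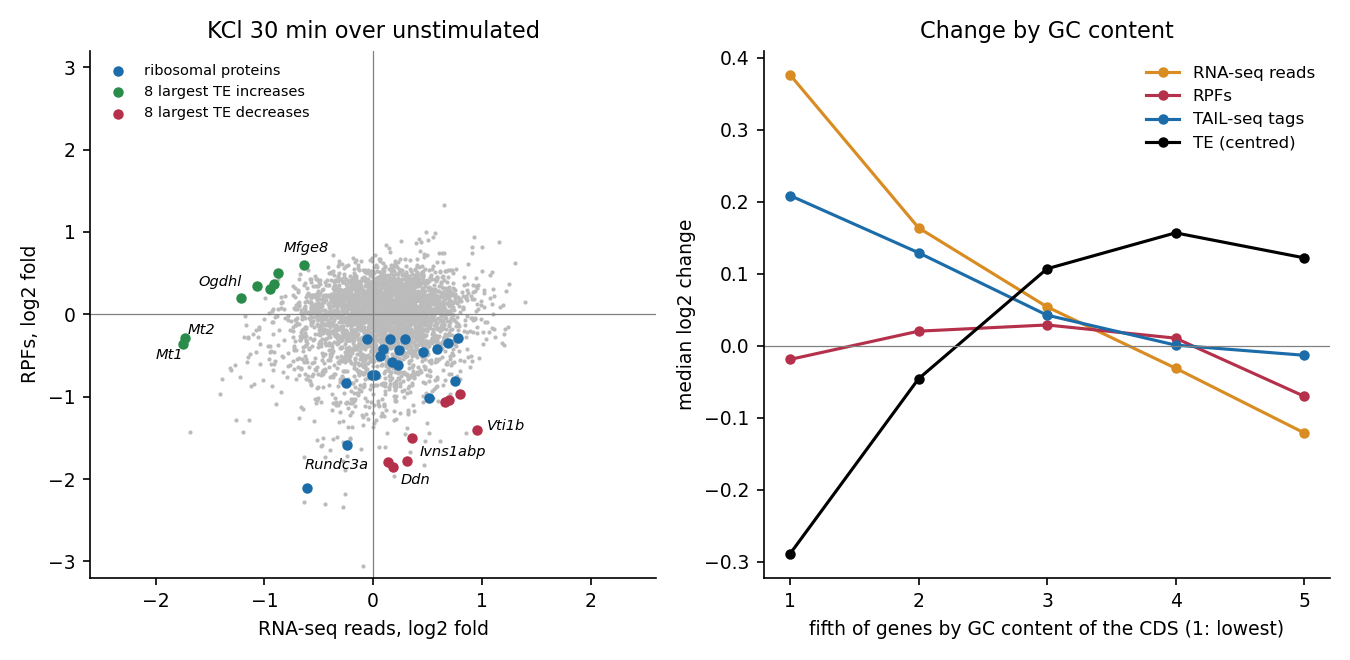
Left, log2 fold of RPFs against log2 fold of RNA-seq reads for genes with 10 RPM in both RNA-seq libraries, 30 min KCl over unstimulated, with 1 library per assay and group; ribosomal protein genes and the 8 largest TE increases and decreases are coloured. Right, median log2 change in 5 bins of coding-sequence GC content, where RNA-seq falls from 0.38 to -0.12 and RPFs stay between 0.03 and -0.07.

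Ribosomal protein mRNAs, whose translation is known to respond to growth signalling through a tract of pyrimidines at their 5′ ends, had lower TE at 30 min. Of the 83 genes, 19 could be compared, and all 19 had a TE change below 0, with a median of -0.63. The change was 2-fold or more in 4 of the 19, beside 4.61% of all genes with a TE, Rplp0 (-1.38), Rplp1 (-1.23), Rpl32 (-1.40) and Rps24 (-1.45). RPFs of the list summed to 2933 CPM in the control and 2001 at 30 min, and tags to 21388 and 19352. Their RNA-seq reads, on which TE rests, went the other way, from 6356 to 6921 CPM. With tags as the measure of mRNA, 30 of 34 genes were below 0, with a median of -0.38, and after the GC correction the median was -0.79. Rplp0, a stalk protein of the large subunit, had 995, 156 and 74 RPFs and 0.231-fold (0.180 to 0.293). Many of these genes have processed pseudogenes that share their reads, and 27 of the 83 had 0 RPFs in the control, so the levels are uncertain. For comparison, the 58 nuclear-encoded subunits of oxidative phosphorylation with a TE had a median change of 0.24, with 18 below 0, and the 27 translation factors a median of -0.09. After the GC correction these medians were 0.11 and 0.10.

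Astrocyte genes lay on the other side. Their 6 members with a TE, Slc1a2, Slc1a3, Aldoc, Aqp4, Gfap and Aldh1l1, had changes from 0.39 to 0.61 and a median of 0.55, with 0 below 0, and 0 reached 2-fold. After the GC correction the median was 0.36. With tags as mRNA, 8 members had a median of 0.60 and 0 were below 0. Slc1a3, the glial glutamate transporter GLAST, had 852, 1187 and 1264 CPM in RPFs and 288, 334 and 302 CPM in tags. The 9 neuron markers with a TE had a median of 0.15. The postsynaptic and dendritic mRNAs, 21 with a TE, had a median of -0.07, with 2 at least 2-fold lower (Ddn and Ppp1r9b) and 0 higher, beside 4.61% and 1.7% of all genes. In RPFs, 3 of 30 members were called lower, namely Ddn, Homer2 and Dlgap3, beside 5.11% of all genes. Grin1, the obligatory NMDA receptor subunit, was at 1.45-fold in RPFs (1.40 to 1.51) and 1.06-fold in tags (0.815 to 1.38). Heat shock genes had 0 of 12 called in tags in either direction, with a median log2 change of 0.09. In RNA-seq their median was 0.53, with 1 of 10 called higher (Dnajb4, 2.02-fold, 1.52 to 2.68), and in RPFs it was 0.11, with 0 of 12 called.

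Poly(A) tails were slightly longer after 30 min of KCl. The mean over all tags was 103.1 nt in the control, 103.2 nt at 10 min and 106.0 nt at 30 min. Over the 2815 genes with at least 50 tags in both libraries, the median change was 2.22 nt and 64.9% of the genes had a longer mean tail. At 10 min the median change over 2543 genes was -0.16 nt. The 9 synthetic tail standards with 50 tags, measured in the same libraries, had a median change of 0.57 nt and ranged from -9.99 to 6.97 nt. The most deeply counted standard had a mean of 41.2 nt in the control and 43.9 nt at 30 min, a change of 2.67 nt. The next 3 in depth changed by 0.57, -0.71 and 0.71 nt, and the ends of the range came from standards with 60 and 162 tags in the control. The standard with a control mean of 204.5 nt changed by -9.44 nt, from 226 and 285 tags. Those with control means of 37.8 and 66.3 nt changed by 6.97 and 3.28 nt. Those at 177.5 and 187.3 nt changed by -9.99 and 0.57 nt. The part of measurement differences between libraries in the shift was not tested.

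A change of at least 20 nt was seen in 27 genes that became longer (0.959%) and 5 that became shorter (0.178%). After the median was subtracted, the counts were 17 and 10. All but 1 of the 27 and all 5 had between 50 and 100 tags in the library with fewer, where the SD of the change over genes was 8.24 nt, against 2.99 nt for genes with at least 500 tags. The exception was Abi2, a regulator of actin assembly, at 104.4 nt in the control, 116.4 nt at 10 min and 127.8 nt at 30 min, from 113, 103 and 156 tags. Among genes with at least 100 tags in both libraries the next increases were in Cep170b (18.7 nt), Cebpd (18.3 nt), Atat1 (18.2 nt) and Rnf10 (18.1 nt). The decreases were led by Yipf4 (-18.8 nt), Adcy1 (-17.4 nt) and Grin1 (-15.9 nt). Adcy1, a calcium-stimulated adenylyl cyclase, had mean tails of 134.8, 129.7 and 117.4 nt.

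Of the 4 largest increases, 3 were in genes that act on deadenylation or mRNA decay, and the other was Relch. Pnrc1, a nuclear receptor coactivator that also takes part in mRNA decapping, had the largest increase of all, from 43.4 nt in the control and 45.5 nt at 10 min to 89.5 nt at 30 min, with 55, 58 and 91 tags. Btg2, which recruits the CCR4-NOT deadenylase, was at 99.7, 105.1 and 135.1 nt with 58, 66 and 96 tags. Tob1, a member of the same family, was at 79.5, 82.0 and 108.5 nt with 70, 46 and 66 tags. Zfp36l1, an AU-rich element-binding protein that recruits the same complex, changed by 8.21 nt. These 4 were the members of the 9-gene list of deadenylase recruiters and partners with 50 tags. The list was drawn up with results for its members known, Pnrc1 among them, so its tail changes are a description and no support for a pattern of the group. Tags of Btg2, Pnrc1 and Tob1 were at 1.29-fold, 1.29-fold and 0.734-fold, and 0 of 6 tested members were called in tags. In RNA-seq, 1 of 5 was called lower, Tob1, with 88, 20 and 13 reads (0.219-fold, 0.112 to 0.394), while Btg2 and Pnrc1 were at 0.949-fold and 0.921-fold. In RPFs, 1 of 8 was called higher, Zfp36, with 27, 45 and 18 (2.07-fold, 1.08 to 3.90), and Btg2, Pnrc1 and Tob1 were at 1.72-fold, 1.53-fold and 0.9501-fold. In the DIV14 cultures, which share another control, mean tails of Pnrc1 were 56.4 nt unstimulated, 87.0 nt after BDNF and 72.9 nt after glu/gly. Those of Btg2 were 121.0, 150.7 and 115.9 nt and those of Tob1 90.7, 119.4 and 92.9 nt.

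**Figure D5:**
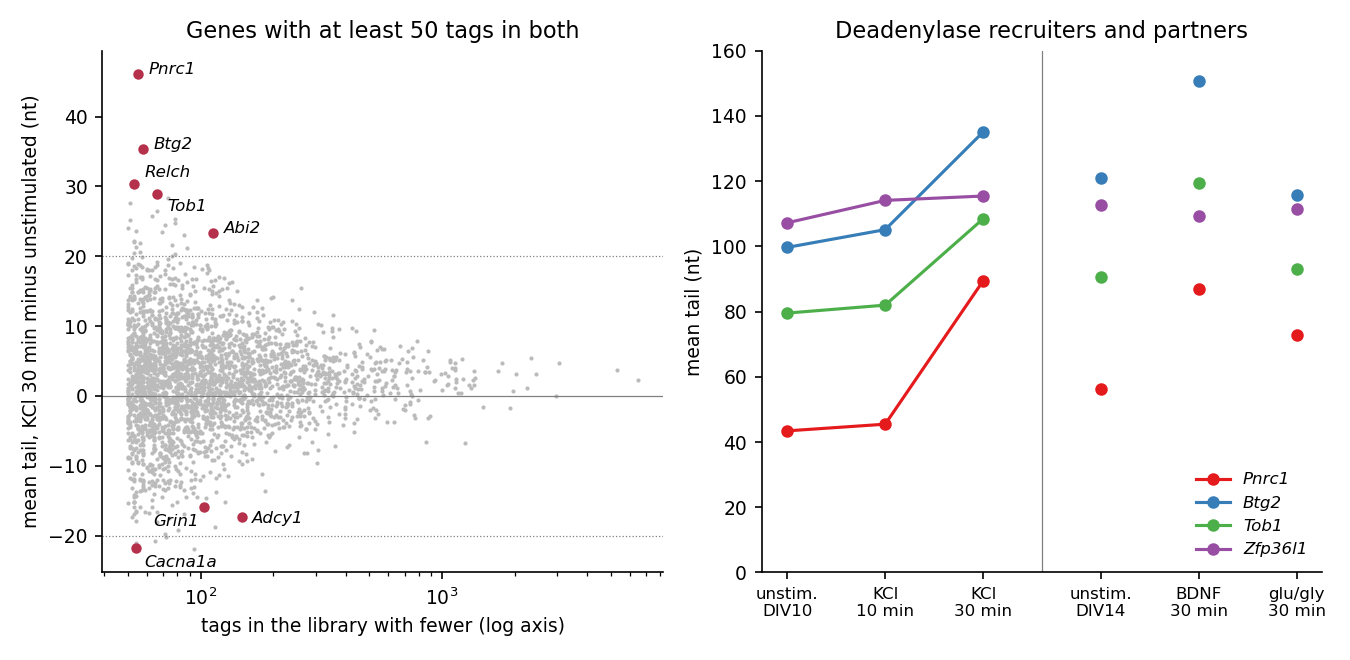
Left, change of mean tail length at 30 min against the tags of the library with fewer (log axis) for genes with at least 50 tags in both libraries, with dotted lines at 20 and -20 nt. Right, mean tails of 4 regulators of deadenylation in the 6 cultures, 1 library each; Pnrc1, Btg2 and Tob1 are longer after 30 min of KCl and after BDNF than in the matching unstimulated culture.

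The induced mRNAs themselves carried long tails at 30 min. Nr4a1 had a mean tail of 148.5 nt from 158 tags, Egr1 146.7 nt from 413, Ier2 140.4 nt from 151, Junb 134.9 nt from 320 and Fos 127.8 nt from 651. All of these lay above 123.1 nt, the 90th percentile of gene means in the same library. Egr2 (138.3 nt), Fosb (137.3 nt), Egr4 (130.8 nt) and Arc (129.7 nt) did so as well, whereas Jun (119.2 nt) and Dusp1 (112.4 nt) did not. In the control these genes had 4 to 40 tags, Jun aside, and a change could not be measured at that depth. At 10 min Fos and Egr1 had 69 and 72 tags and mean tails of 130.3 and 151.7 nt, above the 90th percentile of 120.6 nt in that library. Both means were slightly lower at 30 min than at 10 min. Whether these tails were longer than in the control could not be measured.

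BDNF and glu/gly were applied for the same 30 min, to older cultures with a shared control of their own, and the values are set side by side without a comparison. Fos was at 83.4 CPM in tags in the DIV14 control, 834 with BDNF and 638 with glu/gly, beside 66.1 and 838 in the KCl pair. Arc was at 30.7, 364 and 158 CPM in tags, beside 14.9 and 65.6 with KCl. Npas4 was at 20.98, 303 and 424 CPM in RPFs, beside 3.69 and 198. Nr4a1 was at 43.2, 207 and 263 CPM in tags, beside 11.6 and 203, and Egr1 at 204, 660 and 459, beside 54.6 and 532. Of the immediate-early list, 11 of 25 tested genes were called higher in tags in the BDNF culture and 9 of 25 in the glu/gly culture, with median log2 changes of 0.48 and 0.44. With KCl the values were 12 of 24 and 0.93. In RNA-seq the medians stood in another order, at 1.99 with BDNF (11 of 18 called higher), 0.55 with glu/gly (6 of 14) and 0.37 with KCl (8 of 21). In RPFs they were 0.56 (11 of 28), 0.34 (11 of 29) and 0.67 (13 of 30). Each median covers the members with 20 counts over that pair of libraries, so the sets of genes differ. Members low in a control could enter through the treated library alone, which can raise these medians. The list's summed level after treatment was 4461, 3175 and 3596 CPM in tags for BDNF, glu/gly and KCl.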

How the data were processed

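RNA-seq, RPF and TAIL-seq libraries of the unstimulated and 30 min KCl DIV10 cultures were analysed, with 1 library per assay and group. As deposited, counts are whole reads per gene: the authors counted RNA-seq reads and RPFs over the coding part of a single isoform, leaving out the 50 nt at its start, and TAIL-seq tags at annotated 3′ ends, with mean tail lengths in nt. The deposited RPM values were scaled to a total larger than the reads on listed genes. The authors' TE, deposited as a log2 ratio, equalled log2 of RPF RPM over RNA-seq RPM to within 1.64e-14 in 3535 genes. The submitters' processing notes name STAR 2.4.2, bedtools and the mm10 build. Per the study's methods, 6 culture samples came from 2 batches, 3 in each. Elsewhere the study counts 6 DIV14 culture samples, and whether the statement on batches covers the DIV10 cultures is not said. Which culture fell in which batch is not given in the sources used here.

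Of 16493 accessions, 16357 were matched to symbols in RefSeq (GRCm38.p6). Counts were divided by library totals on genes. A gene with at least 20 counts over both libraries was called at 2-fold or more when its 95% Clopper-Pearson interval did not reach 1. TE used genes at 10 RPM or more in both RNA-seq libraries, and its changes were centred. Tail changes used genes with 50 tags in both libraries and a line of 20 nt. No p-value was computed, since there were no replicates. The members and the 16 gene lists were chosen with earlier results of these data known. Named genes were list members, the 15 and 10 with the largest tag increase and decrease (50 tags over both libraries, RNA-seq in the same direction), the 8 with the largest TE change each way (50 reads and 50 RPFs in both cultures), the 10 with the largest tail change each way (100 tags), and genes called higher in tags. The calculations were tested on simulated data. Python 3.11.15, numpy 2.4.6, pandas 2.3.3 and scipy 1.17.1 were used. Alternatives covered scaling, count minimum, fold, mRNA measure, reference culture and GC correction.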

Additional observations from a re-analysis of the deposited data

How the results depend on the processing

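No paired analysis was possible because each group had 1 library per assay, and for the same reason no replicate could be left out. The folds of the 25 genes named by rank in tags were unchanged in call under median-of-ratios size factors, and with RNA-seq reads 16 were past the rule, 8 were not and S100a11 had too few reads for a value. Their direction in RNA-seq was part of how they were chosen and shows nothing here. Called genes, higher and lower, were as follows, and the cause of a difference was not tested unless fewer genes were tested by construction. With at least 100 counts, which tests fewer genes, there were 23 and 20 in tags, 57 and 136 in RNA-seq, and 57 and 406 in RPFs. With no minimum, 232 were lower in tags. At 1.5-fold there were 347 and 319 in tags, 738 and 1166 in RNA-seq, and 608 and 1496 in RPFs. With 2-fold alone, 220 were higher in tags, and with the synthetic standards as the scale there were 460 and 57. With the 10 min KCl culture as reference, an alternative chosen after seeing the data, there were 92 and 76 in tags, 139 and 296 in RNA-seq, 106 lower in RPFs, 27 and 34 in TE, and 9 shorter tails. In that setting TE of Rc3h2 and Sh3kbp1 changed direction, to 0.029 and 0.070. For TE there were 16 and 40 genes at 30 RPM or more, 292 and 63 without centring, 300 lower with tags as mRNA, and 34 higher after the GC correction, also chosen after seeing the data. For tails there were 1 and 0 genes at 100 tags, 0 and 0 at 200 tags, 17 and 10 after subtraction of the median, and 125 and 33 at a log2 ratio of 0.2. At 100 tags the immediate-early list held 1 gene, Jund, with a tail change of -1.14 nt in place of a list median of 6.43 nt. Depth limits the tail and RNA-seq results: the RNA-seq libraries held 9 to 18 reads of Egr1, and tags of Npas4 and Egr2 in the control were 0 and 4.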

Other observations

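Genes of the integrated stress response, whose translation depends on upstream open reading frames, were measured but, Ppp1r15a aside, are not described in the text above. Of the 11 on the list, 1 of 9 tested was called higher in tags (Ppp1r15a) and 0 lower, with a median log2 change of 0.16, beside 0.03 over all genes. Atf4, the transcription factor of this response, had a TE change of 0.60 (log2), Asns, a target of it, 0.23 and Eif5 -0.27. Trib3, a further target, was called higher in RPFs from 12 and 10 footprints, 2.59-fold with an interval of 1.00 to 6.54. Translation factors had 0 of 37 tested members called in tags in either direction, and Eif4ebp2, a repressor of cap-dependent initiation, was called lower in RPFs, with 267, 37 and 20 in the control, 10 min and 30 min cultures (0.233-fold, 0.140 to 0.367). Its tags were 0 in all 3 cultures.

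Some genes below the minimum for tails had values near those of the deadenylase regulators. Tob2, a paralog of Tob1, had mean tails of 92.5 nt from 21 tags in the control and 122.3 nt from 38 tags at 30 min. Homer1 had 82.8 nt from 39 tags and 122.5 nt from 49 tags. Both genes are named here for these values, and a change could not be measured at that depth.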
